A study of Mus musculus with 28 samples.

Results

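The CpG time course of IFNARko dendritic cells, which lack the type I interferon receptor IFNAR per the labels, comprised 4 of the 28 libraries of the series. They were cells given CpG DNA for 1, 3 or 8 h and an untreated control labelled 1 h, with 1 library in each group. The same control served all 3 times, so at 3 and 8 h CpG and time in culture cannot be told apart. The cells were bone marrow-derived dendritic cells of C57BL/6 mice, grown with GM-CSF (20 ng/mL) and IL-4 (10 ng/mL), and the CpG DNA was the oligonucleotide ODN 1668 at 0.1 µM. The same 4 conditions in cells without both IFNAR and RelB (IFNARko;RelBko, here the double knockout), in WT cells and in RelBko cells served for comparison. RelB is an NF-kB subunit, and the double knockout and RelBko cells therefore carried a further knockout that the IFNARko cells did not. The labels describe the knockouts as mice and name no Cre line, and they do not say how many mice gave each library. A gene was taken as a member of the time course where its mean over the 4 IFNARko libraries was at least 5 CPM (reads per 1000000 reads of the library), which held for 9911 of 24995 named genes. Just inside that limit stood Tspyl4 and Zfp870, each with a mean of 5.01 CPM, and just outside it Bhlhb9 and Lzts2, with means of 4.9988 and 4.9979 CPM.

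CpG DNA is sensed in endosomes by TLR9, which signals through MyD88 and IRAK kinases to NF-kB and MAP kinases and so switches on cytokine and chemokine genes. In many cells the same signal also yields type I interferon, which leaves the cell, binds IFNAR and, through STAT2 and IRF9, turns on a second wave of antiviral genes, the interferon-stimulated genes. Cells without IFNAR cannot receive that feedback, and the time course thus addresses which genes TLR9 reaches without it.

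Changes were taken as the difference of log2(CPM + 1) from the IFNARko control, and with 1 library per group the change in IFNARko cells alone has no test. Past 2-fold means a log2 change of at least 1 in size. The test was limma on all 16 libraries of the CpG sheet, with IFNARko and double knockout cells as the 2 repeats of an IFNAR-null response and WT and RelBko cells as the 2 repeats of an IFNAR-intact one. Its values are log2 changes with standard errors (SE), and its p-values measure the spread between genotypes, since the labels name no separate cultures. The call took a Benjamini-Hochberg adjusted p under 0.05 over the 12608 genes tested, and "rose" and "fell" are used of called genes. In these bulk samples, fewer cells of a type and less RNA per cell cannot be told apart.

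The IFNARko libraries held 7288090, 8656129 and 3269933 reads at 1, 3 and 8 h of CpG and 15541763 reads in the control, so that 5 CPM stood for 16.3 reads at 8 h and 77.7 reads in the control. Gene-level values do not check the knockouts, since the files do not say which exons are missing: Ifnar1, the receptor's first chain, had 82.4, 83.0, 52.0 and 70.9 CPM in the IFNARko control and at 1, 3 and 8 h, against 109, 122, 109 and 142 CPM in the WT libraries in the same order, and Relb was also read in the double knockout, at 103, 96.4, 188 and 209 CPM. The dendritic cell markers summed to 15463, 15379, 15117 and 15632 CPM in the IFNARko control and at 1, 3 and 8 h, and 12 of their 14 genes passed 5 CPM. Their list includes MHC class II presentation genes, and the separate MHC class II list summed to 15711, 15521, 15075 and 15403 CPM in the same order. The sum is therefore not shown to reflect the other markers. The T and NK cell markers summed to 1001 to 1357 CPM in the 4 IFNARko libraries, against 151 to 236 CPM in the double knockout and 147 to 305 CPM in WT, and 14 of the 17 genes passed 5 CPM. The Y-linked gene Ddx3y was at 109, 114, 110.3 and 85.0 CPM in the IFNARko libraries and at 0 to 0.100 CPM in those of the double knockout, so the repeats of the IFNAR-null response differ in the sex of the donor mice as well as in RelB. Ddx3y was also read in RelBko cells and was absent or nearly so in WT. The repeats of the IFNAR-intact response thus differ in sex too, and so do IFNARko and WT cells. Erythroid and stromal markers summed to 1.83 to 5.47 CPM in the IFNARko libraries, with none of 15 at 5 CPM.

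The response grew with time. At 1 h 45 genes were at least 2-fold higher and 3 at least 2-fold lower in IFNARko cells, which is 0.454% and 0.0303% of the 9911. At 3 h 229 genes (2.31%) were higher and 203 (2.05%) lower, and at 8 h 307 (3.10%) were higher and 445 (4.49%) lower. Over the 3 times 384 genes passed 2-fold upward, of which 16 were highest at 1 h, 122 at 3 h and 246 at 8 h. Of the 45 genes of 1 h, 32 were still at least 2-fold higher at 3 h and at 8 h, and 6 passed 2-fold at 1 h alone. The lower genes came later: 341 of the 445 at 8 h had not passed 2-fold at 3 h. Where reads were scaled by median ratios in place of library totals, the counts were 304 higher and 129 lower at 3 h and 413 higher and 330 lower at 8 h, where by library totals the median change of all members was -0.14 at 3 h and -0.15 at 8 h. Counting error bears on these calls: the 95% counting interval of the CPM ratio lay wholly above 2-fold for 33, 180 and 214 genes at 1, 3 and 8 h and wholly below 0.5 for 2, 112 and 183 genes.

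**Figure D1:**
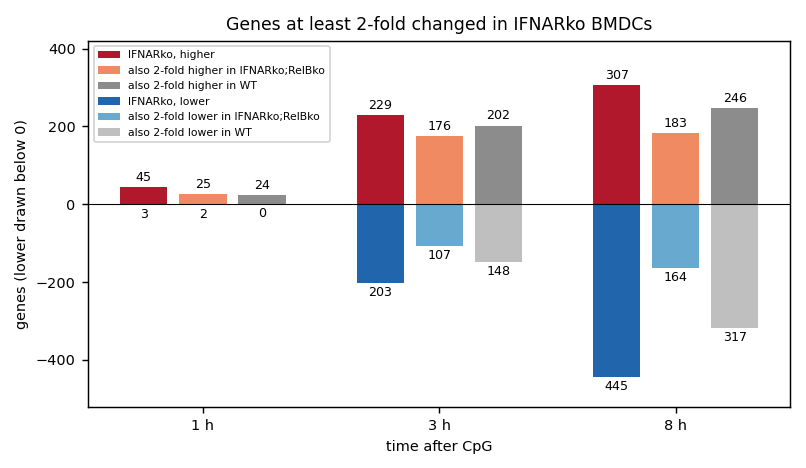
Number of genes at least 2-fold higher (above 0) or lower (below 0) in IFNARko cells at 1, 3 and 8 h of CpG, with the number of those genes that also passed 2-fold in the same direction in the double knockout (IFNARko;RelBko) and in WT. At 8 h 183 of 307 higher genes also passed 2-fold in the double knockout and 246 in WT.

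The double knockout and WT gave their own values for the same genes. Of the genes at least 2-fold higher in IFNARko cells, 25, 176 and 183 also passed 2-fold in the double knockout at 1, 3 and 8 h, and 24, 202 and 246 in WT. Of those at least 2-fold lower, 2, 107 and 164 also passed 2-fold downward in the double knockout, and 0, 148 and 317 in WT. In the limma fit over both IFNAR-null genotypes, 44 genes rose and 18 fell at 1 h (0.349% and 0.143% of those tested). The 18 falls of 1 h became 3 without IFNARko and 1 without the double knockout, while 38 and 53 genes rose. At 3 h 1035 rose and 2343 fell (8.21% and 18.6%), and at 8 h 1378 rose and 2849 fell (10.9% and 22.6%). With median-ratio scaling 1513 rose and 1233 fell at 3 h and 1837 rose and 1745 fell at 8 h, so that the excess of falling genes depended on the scaling. Left without IFNARko or without the double knockout, the fit called 2020 or 1644 genes at 3 h and 2115 or 3009 at 8 h.

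Tnf, the inflammatory cytokine, was among the fastest and strongest responders. It stood at 9.65, 300.4, 320.4 and 316 CPM in the IFNARko control and at 1, 3 and 8 h. In the double knockout it stood at 8.21, 146, 138 and 125 CPM in the same order, and in WT at 9.75, 339.9, 656 and 431 CPM. In each genotype all CpG libraries lay far above the control, and the double knockout reached lower levels than IFNARko cells at each time. The IFNARko level at 1 h was 31.1-fold (95% counting interval 26.4 to 37.0) that of the control, and the IFNAR-null change was 4.41 ± 0.27 (SE, adjusted p = 0.00022). Nfkbiz, an inducible atypical IkB that acts with NF-kB on secondary genes, stood at 4.76, 149, 228 and 178 CPM in the IFNARko control and at 1, 3 and 8 h, and its IFNAR-null change was 4.34 ± 0.31 (SE, adjusted p = 0.0011) at 1 h and 4.76 ± 0.31 (SE, adjusted p = 3.0e-05) at 8 h. It stayed high through 8 h, as Tnf did.

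Other genes of the 1 h wave came down again. Tnfsf9, the ligand of the co-stimulatory receptor 4-1BB, stood at 2.06, 49.0, 27.5 and 11.0 CPM in the IFNARko control and at 1, 3 and 8 h and at 2.10, 31.7, 26.1 and 11.5 CPM in the double knockout. It was highest at 1 h in both genotypes, with an IFNAR-null change of 3.71 ± 0.18 (SE, adjusted p = 8.5e-10) at 1 h and 1.99 ± 0.18 (SE, adjusted p = 2.2e-07) at 8 h. Zfp36, which encodes the RNA-decay factor tristetraprolin, was at 129, 340.0, 131 and 173 CPM in the IFNARko control and at 1, 3 and 8 h, a change of 1.38 ± 0.11 (SE, adjusted p = 2.0e-06) at 1 h, and lay near its control again at 3 h. Egr1, an immediate early transcription factor, was at 11.3, 80.7, 14.0 and 25.1 CPM in the IFNARko control and at 1, 3 and 8 h and at 5.41, 180.2, 6.35 and 7.86 CPM in the double knockout, highest at 1 h in both. Its change at 1 h of 3.78 ± 0.60 (SE, adjusted p = 0.087) did not pass the test. Of the 21 immediate early genes measured, 4 were at least 2-fold higher in IFNARko cells at 1 h, 1 at 3 h and 3 at 8 h. In the fit 6 of the 21 rose at 1 h, namely Fos, Junb, Ier2, Ier3, Nr4a1 and Btg2, and 1 fell. Over all genes 0.349% rose and 0.143% fell at 1 h. Of the 21, 2 rose and 5 fell at 3 h, or 5 and 3 with median-ratio scaling, and 6 rose and 3 fell at 8 h. The median change of the list was 0.44 at 1 h, beside -0.03 over all genes.

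The 3 genes at least 2-fold lower at 1 h included Cebpb, a transcription factor of myeloid cells, and Bri3. Cebpb stood at 99.6, 31.6, 55.2 and 202 CPM in the IFNARko control and at 1, 3 and 8 h and Bri3 at 84.9, 31.8, 34.5 and 79.2 CPM, so both dipped early and were near or above their control by 8 h. The IFNAR-null change of Bri3 at 1 h was -1.34 ± 0.22 (SE, adjusted p = 0.03), a call lost without IFNARko or without the double knockout, and that of Cebpb, at -1.57 ± 0.43 (SE, adjusted p = 0.51), did not pass. Transcript GC content moved with the changes: across the 9879 genes with a GC value Spearman's rho between GC and change was -0.15 at 1 h, -0.184 at 3 h and -0.04 at 8 h in IFNARko cells. In the double knockout rho was -0.157, -0.135 and -0.127 at 1, 3 and 8 h. It was -0.171, -0.193 and -0.322 in WT and -0.212, -0.258 and -0.148 in RelBko cells in the same order. These values are across genes, which are not independent replicates. The part of GC content in the falls, or in differences between IFNAR states, was not tested. Centring on genes of like GC, added after seeing the data, gave 45 higher and 3 lower genes at 1 h and 314 higher and 112 lower at 3 h. At 8 h it gave 425 higher and 314 lower, where the excess of lower genes turned. Centring also takes out the median change of all genes, so this step cannot show a part of GC. Median-ratio scaling, which does not use GC, gave 413 higher and 330 lower at 8 h.

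**Figure D2:**
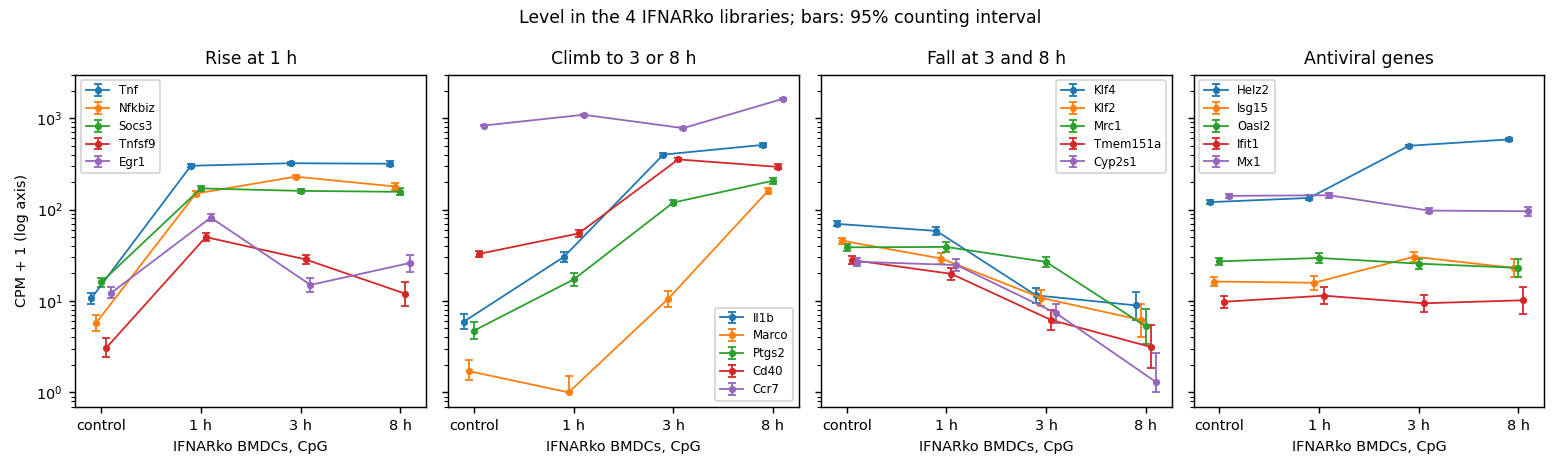
CPM + 1 (log axis) in the 4 IFNARko libraries for genes that were higher at 1 h, genes that were highest at 3 or 8 h, genes that fell and antiviral genes. Bars are 95% counting intervals. Tnf stood near 300 CPM from 1 h on, Marco climbed to 159 CPM at 8 h, Cyp2s1 fell to 0.306 CPM and Mx1 stayed between 94.8 and 142 CPM.

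Most regulators of NF-kB itself rose by 3 h. Of 23 genes on the list of NF-kB subunits and feedback, 18 rose in IFNAR-null cells at 3 h and 18 at 8 h, and 2 fell at 3 h. Among all genes tested 8.21% rose and 18.6% fell at 3 h, and 10.9% rose and 22.6% fell at 8 h. The list's median change in IFNARko cells was 0.76 at 3 h and 0.81 at 8 h, beside -0.14 and -0.15 over all genes. Nfkbia, which encodes the inhibitor IkB-alpha and is itself an NF-kB target, stood at 319.6, 1007, 926 and 782 CPM in the IFNARko control and at 1, 3 and 8 h, against 299, 822, 948 and 794 CPM in WT. The IFNAR-null change was 1.52 ± 0.09 (SE, adjusted p = 5.6e-09) at 1 h, and its difference from the IFNAR-intact change at 8 h, -0.05 ± 0.12 (SE, adjusted p = 0.85), did not pass. Tnfaip3, the ubiquitin-editing brake A20, was at 140.2, 626, 549 and 394 CPM in the IFNARko control and at 1, 3 and 8 h, highest at 1 h. Its IFNAR-null change was 2.07 ± 0.13 (SE, adjusted p = 1.1e-06) at 1 h and 1.29 ± 0.13 (SE, adjusted p = 6.1e-06) at 8 h.

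Among the NF-kB subunit genes, Relb and Nfkb2 rose at 3 h. Relb was at 152, 141, 221 and 273 CPM in the IFNARko control and at 1, 3 and 8 h, and Nfkb2, which encodes p100, the precursor of RelB's partner p52, was at 347, 391, 549.7 and 609 CPM. Both were near their control at 1 h and higher at 3 and 8 h, with IFNAR-null changes at 8 h of 0.93 ± 0.11 (SE, adjusted p = 6.5e-06) for Relb and 0.81 ± 0.11 (SE, adjusted p = 1.7e-05) for Nfkb2. Ikbke, a kinase of the interferon-inducing branch, was at 57.1, 61.1, 228 and 225 CPM in IFNARko cells in the same order and rose by 1.74 ± 0.10 (SE, adjusted p = 3.7e-09) at 3 h. The members that fell at 3 h were Rel and Map3k14. Map3k14, which encodes NIK, the kinase that starts the alternative NF-kB pathway, was at 247, 238, 73.5 and 181 CPM in the IFNARko control and at 1, 3 and 8 h. It was lowest at 3 h, with a change of -1.43 ± 0.20 (SE, adjusted p = 0.00069), and the IFNAR-null change at 8 h of -0.37 ± 0.20 (SE, adjusted p = 0.18) did not pass.

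Some brakes on the response rose in the same libraries. Of 17 phosphatases, RNA-decay factors and signalling brakes, the fit called 7 upward at 1 h, 5 at 3 h and 8 at 8 h, and 2 fell at 3 h and 1 at 8 h. Over all genes 0.349%, 8.21% and 10.9% rose at 1, 3 and 8 h, and 18.6% and 22.6% fell at 3 and 8 h. Socs3, a suppressor of cytokine signalling through JAK kinases, was at 15.0, 169, 159 and 155 CPM in the IFNARko control and at 1, 3 and 8 h, against 12.5, 97.4, 159 and 125 CPM in WT. In both genotypes all CpG libraries lay above the control, and the IFNAR-null change at 1 h was 3.70 ± 0.23 (SE, adjusted p = 6.3e-05). Zc3h12a, which encodes the ribonuclease Regnase-1, was at 44.3, 109, 199 and 248 CPM in IFNARko cells in the same order and climbed through 8 h, with a change of 2.31 ± 0.11 (SE, adjusted p = 7.1e-11). Zfp36l2, another RNA-decay factor, fell at 3 h, with a change of -1.51 ± 0.11 (SE, adjusted p = 3.6e-08). At 8 h 12 brakes rose without the double knockout.

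Inflammatory cytokine genes were high in the absence of IFNAR. Of 17 measured at 5 CPM, from 26 listed, 9 were at least 2-fold higher in IFNARko cells at 1 h, 13 at 3 h and 11 at 8 h, and none was 2-fold lower. The fit called 2 of them upward at 1 h, 12 at 3 h and 14 at 8 h, and the 2 of 1 h became 4 without IFNARko and 6 without the double knockout. For comparison, 0.349%, 8.21% and 10.9% of all genes tested rose at 1, 3 and 8 h. The list's median change was 1.68 at 3 h and 1.97 at 8 h, beside medians of -0.14 and -0.15 over all genes. Its members were summed at 427, 1191, 2906 and 4006 CPM in the IFNARko control and at 1, 3 and 8 h.

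Il1b, the secreted IL-1, was at 4.95, 29.2, 398 and 509 CPM in the IFNARko control and at 1, 3 and 8 h. In the double knockout it was at 6.11, 23.4, 253 and 264 CPM, and in WT at 3.73, 24.3, 526 and 450.4 CPM. It climbed late in each genotype, and the IFNARko level at 8 h lay above those of the double knockout and WT. The IFNARko level at 8 h was 103-fold (95% counting interval 81.7 to 131) that of its control, the IFNAR-null change 5.82 ± 0.41 (SE, adjusted p = 9.0e-05) and the difference from the IFNAR-intact change -0.08 ± 0.58 (SE, adjusted p = 0.96). Il1a, its relative, was at 3.41, 24.6, 253 and 366 CPM in IFNARko cells and rose by 4.76 ± 0.70 (SE, adjusted p = 0.0037) at 3 h.

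Il12b, which encodes the p40 chain shared by IL-12 and IL-23, was at 23.9, 178, 655 and 1377 CPM in the IFNARko control and at 1, 3 and 8 h. It was at 3.30, 75.2, 834 and 359.9 CPM in the double knockout and at 6.45, 25.1, 504 and 848 CPM in WT. It reached its highest level at 8 h in IFNARko cells and in WT but at 3 h in the double knockout, and the IFNAR-null change at 3 h was 6.16 ± 0.65 (SE, adjusted p = 0.00084). Il6 was at 8.30, 68.5, 180.3 and 216 CPM in IFNARko cells in the same order and rose by 3.50 ± 0.48 (SE, adjusted p = 0.0026) at 3 h. At 1 h its change of 2.39 ± 0.48 (SE, adjusted p = 0.2) did not pass. Il23a, the other chain of IL-23, had a mean under 5 CPM and so was no member. It had 0 reads in the IFNARko control and 62, 47 and 8 reads at 1, 3 and 8 h, at least 44.0-fold higher at 1 h against a floor of 3 reads in the control library. Il10, the anti-inflammatory cytokine, stayed at 13 reads or fewer in all 4 libraries.

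Chemokine genes followed, with 4 of 17 at least 2-fold higher in IFNARko cells at 1 h, 11 at 3 h and 12 at 8 h. The fit called 3 upward at 1 h, 14 at 3 h and 13 at 8 h, and Ccl6 and Ccl24 fell at 8 h. The shares of all genes that rose were 0.349%, 8.21% and 10.9% at 1, 3 and 8 h, and 22.6% fell at 8 h. Cxcl2, a neutrophil attractant that binds CXCR2, was at 1.67, 20.0, 71.4 and 104 CPM in the IFNARko control and at 1, 3 and 8 h, against 9.32, 117, 822 and 546 CPM in WT. Its level was lower in IFNARko cells than in WT in every condition, control included, while the difference in change at 8 h, -0.63 ± 0.43 (SE, adjusted p = 0.47), did not pass. The IFNAR-null change at 3 h was 4.64 ± 0.30 (SE, adjusted p = 2.6e-05). Cxcl3, of the same family, was at 2.25, 3.57, 50.6 and 209 CPM in IFNARko cells and 34.4, 50.5, 910.1 and 2072 CPM in WT and rose by 5.26 ± 0.37 (SE, adjusted p = 6.8e-05) at 8 h. Cxcl5 had 0 reads in the IFNARko control and 38.8 CPM at 8 h, at least 201-fold higher against 3 reads in the control.

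Ccl3, an attractant of monocytes and T cells, was at 22.8, 56.1, 294 and 356 CPM in the IFNARko control and at 1, 3 and 8 h and at 15.9, 29.2, 216 and 188 CPM in the double knockout. It climbed to 3 h and moved less from there to 8 h in both, with an IFNAR-null change of 3.66 ± 0.12 (SE, adjusted p = 2.0e-12) at 3 h. Ccl5 was at 381, 471, 762 and 1648 CPM in IFNARko cells in the same order and was highest at 8 h, a change of 1.70 ± 0.18 (SE, adjusted p = 9.1e-05). In 4 chemokine genes at 3 h and 5 at 8 h, beside 0.547% and 2.88% of all genes, the IFNAR-null change was smaller than the IFNAR-intact one. Cxcl1, Cxcl9 and Cxcl10 were among them at both times. Without WT none of these differences was called at either time, and without RelBko none at 3 h and 2 at 8 h. Cxcl1 was at 0.129, 8.10, 6.01 and 9.17 CPM in IFNARko cells and at 0.143, 6.72, 94.8 and 92.9 CPM in WT, a difference of -2.56 ± 0.49 (SE, adjusted p = 0.038) at 3 h, which was also lost without IFNARko.

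Cxcl10, an attractant of activated T cells that is also an interferon target, had a short peak. It was at 14.0, 24.8, 57.3 and 8.87 CPM in the IFNARko control and at 1, 3 and 8 h, at 2.30, 3.83, 6.18 and 2.62 CPM in the double knockout and at 5.02, 13.8, 76.2 and 19.0 CPM in WT. In each genotype it was highest at 3 h, and in IFNARko cells it lay under its control again at 8 h. The IFNAR-null change at 3 h was 1.54 ± 0.26 (SE, adjusted p = 0.00056), and its difference from the IFNAR-intact change was -2.08 ± 0.37 (SE, adjusted p = 0.015).

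The bases before the start of 6 genes are shown because NF-kB and interferon-activated factors are known to act through such promoter letters. Promoter windows of 250 bases before the start came from RefSeq on GRCm38.p6 (the mouse build the submitters name as mm10). They were read on the gene's own strand and searched on both strands for GGGNNNTTCC, an NF-kB-like motif, GAAANNGAAA, the core of the interferon-stimulated response element (ISRE), and TGANTCA, an AP-1-like motif, with overlapping matches kept. Capitals mark the NF-kB-like and ISRE matches. Cxcl2 (chr5:90903649-90903898, plus strand) held 3 NF-kB-like matches, of which 2 overlap. Marco (chr1:120505025-120505274, minus strand), a scavenger receptor described further on, held 1 NF-kB-like match. Cxcl10 (chr5:92348890-92349139, minus strand) held 2 NF-kB-like matches and 1 ISRE match. The antiviral gene Isg15 (chr4:156200819-156201068, minus strand) held 3 overlapping ISRE matches and Ifit1 (chr19:34640639-34640888, plus strand) held 2. Tnf (chr17:35202008-35202257, minus strand) held none of them in this window. Further named genes were searched but are not shown. Of these, Socs3, Il1b, Il12b, Irg1, Ccl3, Oasl2, Cmpk2 and Helz2 also held no match to any of the motifs. Nfkbia and Il6 held 1 NF-kB-like match each, and Rsad2 held 1 ISRE match. Il6 and Rsad2 also held 1 AP-1-like match each, as did Cxcl10.
Cxcl2: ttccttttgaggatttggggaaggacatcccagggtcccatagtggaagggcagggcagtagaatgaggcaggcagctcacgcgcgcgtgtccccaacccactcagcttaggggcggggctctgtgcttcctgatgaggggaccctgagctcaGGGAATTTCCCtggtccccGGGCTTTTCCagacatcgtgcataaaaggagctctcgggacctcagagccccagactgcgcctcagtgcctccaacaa
Marco: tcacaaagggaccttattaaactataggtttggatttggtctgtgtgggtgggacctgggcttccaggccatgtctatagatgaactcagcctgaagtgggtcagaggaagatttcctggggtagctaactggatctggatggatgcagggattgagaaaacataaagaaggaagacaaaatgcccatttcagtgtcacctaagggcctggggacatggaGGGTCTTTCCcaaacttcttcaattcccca
Cxcl10: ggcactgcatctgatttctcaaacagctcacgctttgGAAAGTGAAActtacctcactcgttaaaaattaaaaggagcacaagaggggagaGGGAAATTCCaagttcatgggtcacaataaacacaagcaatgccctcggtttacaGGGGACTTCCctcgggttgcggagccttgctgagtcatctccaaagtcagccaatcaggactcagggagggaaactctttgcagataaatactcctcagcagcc
Isg15: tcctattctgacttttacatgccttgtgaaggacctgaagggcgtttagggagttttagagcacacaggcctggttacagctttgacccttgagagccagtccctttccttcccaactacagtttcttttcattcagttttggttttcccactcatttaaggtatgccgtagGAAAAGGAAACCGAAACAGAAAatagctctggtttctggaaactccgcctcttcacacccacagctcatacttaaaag
Ifit1: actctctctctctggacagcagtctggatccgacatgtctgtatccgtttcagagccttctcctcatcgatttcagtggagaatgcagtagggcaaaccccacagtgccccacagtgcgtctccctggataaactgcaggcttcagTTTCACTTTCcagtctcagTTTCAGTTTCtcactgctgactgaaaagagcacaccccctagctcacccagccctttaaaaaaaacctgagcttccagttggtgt
Tnf: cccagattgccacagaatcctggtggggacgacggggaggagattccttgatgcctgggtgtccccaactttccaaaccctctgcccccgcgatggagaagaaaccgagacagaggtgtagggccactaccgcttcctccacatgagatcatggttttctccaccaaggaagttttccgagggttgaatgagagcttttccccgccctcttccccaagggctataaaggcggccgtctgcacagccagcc

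Over groups, the NF-kB-like letters stood in 7 of the 35 promoters found for genes at least 2-fold higher at 1 h (20%), in 21 of 183 at 3 h (11.5%) and in 30 of 232 at 8 h (12.9%). They stood in 6.21% of the 8056 promoters found for all members and in 5.31% of all 27025 in the table. Among genes at least 2-fold lower the shares were 3.45% at 3 h and 3.38% at 8 h. The ISRE letters stood in 8.57% (3 of 35), 4.92% and 3.45% for genes higher at 1, 3 and 8 h. Among genes lower at 3 and 8 h the shares were 2.87% and 4.23%, and over all members 3.38%. They stood in 11 of 34 (32.4%) for the antiviral genes whose response at 8 h was smaller without IFNAR. In those 34 the NF-kB-like and the AP-1-like letters each stood in 6 (17.6%). The antiviral list was made of known interferon-stimulated genes, so its ISRE share is no independent result. The AP-1-like letters stood in 14.3%, 9.29% and 6.9% for genes higher at 1, 3 and 8 h and in 5.36% over all members. Among genes lower at 3 and 8 h they stood in 10.3% and 9.01%, above the shares of genes higher at those times. A match is a description of these letters and not of a bound site.

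Most genes of dendritic cell maturation, by which the cells gain co-stimulatory ligands and move to lymph nodes, rose without IFNAR. Of 29 measured, 13 were at least 2-fold higher in IFNARko cells at 3 h and 14 at 8 h, with a median change of 0.84 at 3 h and 0.98 at 8 h. In the fit 19 rose at 3 h and 22 at 8 h, and 2, Ptgir and Cst7, fell at 8 h. Across all genes tested 8.21% rose at 3 h and 10.9% at 8 h, and 22.6% fell at 8 h. Cd40, the receptor for T cell help, was at 31.7, 53.8, 353 and 292 CPM in the IFNARko control and at 1, 3 and 8 h, at 41.7, 65.8, 619 and 291 CPM in the double knockout and at 11.5, 15.9, 259.8 and 262 CPM in WT. All 3 h and 8 h libraries lay above all control and 1 h libraries, and the IFNAR-null change was 3.65 ± 0.34 (SE, adjusted p = 0.00037) at 3 h and 2.97 ± 0.34 (SE, adjusted p = 0.00078) at 8 h. The call at 3 h was lost without the double knockout and that at 8 h without IFNARko.

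Cd80, a ligand of CD28, was at 39.6, 60.2, 155 and 136 CPM in the IFNARko control and at 1, 3 and 8 h and rose by 2.26 ± 0.17 (SE, adjusted p = 1.9e-06) at 3 h. Fscn1, the actin bundler fascin of mature dendritic cells, was at 283, 378, 1299.7 and 1258 CPM in IFNARko cells in the same order, a change of 2.41 ± 0.15 (SE, adjusted p = 9.2e-07) at 3 h. Bcl2l1, which encodes the survival protein Bcl-xL, was at 85.6, 101, 369.9 and 207 CPM and was highest at 3 h. Ccr7, the receptor that guides dendritic cells to lymph nodes, was at 829, 1089, 776 and 1627 CPM in the IFNARko control and at 1, 3 and 8 h. Its control was already high, its change at 3 h of 0.06 ± 0.12 (SE, adjusted p = 0.74) did not pass, and at 8 h it rose by 0.79 ± 0.12 (SE, adjusted p = 0.00017). The difference from the IFNAR-intact change passed for 1 member, Il15ra, at 8 h.

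A list of nitric oxide, itaconate, prostaglandin and redox enzymes had 10 of 17 measured genes called upward at 3 h and at 8 h. On it 2, Arg1 and Ptgs1, were called downward. The list also holds Saa3 and Lcn2, which are not enzymes of these syntheses. Among all genes 8.21% rose and 18.6% fell at 3 h, and 10.9% rose and 22.6% fell at 8 h. Irg1, which makes itaconate, was at 117, 176, 906 and 1056 CPM in the IFNARko control and at 1, 3 and 8 h, against 250.3, 311, 2744 and 3327 CPM in WT, and its IFNAR-null change was 2.74 ± 0.19 (SE, adjusted p = 7.0e-06) at 3 h. Ptgs2, the inducible cyclooxygenase COX-2, was at 3.73, 16.2, 118 and 206 CPM in IFNARko cells in the same order, at 1.80, 2.90, 10.2 and 11.8 CPM in the double knockout and at 2.72, 19.5, 533 and 412 CPM in WT. The 2 IFNAR-null genotypes thus differed widely in its level, and its change at 3 h of 3.33 ± 0.83 (SE, adjusted p = 0.03) was lost on leaving out any of the 4 genotypes. Nos2, the inducible nitric oxide synthase, was at 496, 446, 910.0 and 1402 CPM in IFNARko cells in the same order and rose by 1.23 ± 0.15 (SE, adjusted p = 9.7e-05) at 8 h. Saa3, an acute-phase protein, and Lcn2, an iron-binding lipocalin, climbed to 47.4 and 116 CPM at 8 h, against 1.03 and 13.4 CPM in the IFNARko control.

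Marco, a scavenger receptor of macrophages and some activated dendritic cells, had the largest change of the members in IFNARko cells at 8 h. It was at 0.708, 0, 9.59 and 159 CPM in the IFNARko control and at 1, 3 and 8 h, at 0.901, 0.829, 11.3 and 228 CPM in the double knockout and at 0.287, 1.27, 35.9 and 241 CPM in WT. Each genotype was near 0 in its control and at 1 h and highest at 8 h. The IFNARko level at 8 h was 225-fold (95% counting interval 125 to 453) that of its control, and the IFNAR-null change was 6.73 ± 0.19 (SE, adjusted p = 7.4e-14). At 3 h the IFNAR-null change was 2.66 ± 0.19 (SE, adjusted p = 2.7e-08), with a difference from the IFNAR-intact one of -2.04 ± 0.27 (SE, adjusted p = 0.00091), and at 8 h the difference of -0.90 ± 0.27 (SE, adjusted p = 0.057) did not pass. The call on the difference at 3 h was lost without WT or without RelBko.

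Other receptors were called in both directions. Of 21 scavenger, lectin and chemoattractant receptors, 9 rose and 5 fell at 3 h and 10 rose and 9 fell at 8 h. Over all genes 8.21% rose and 18.6% fell at 3 h, and 10.9% rose and 22.6% fell at 8 h. Fpr2, a receptor for formyl peptides, was at 2.90, 6.59, 26.9 and 63.6 CPM in the IFNARko control and at 1, 3 and 8 h and rose by 4.11 ± 0.31 (SE, adjusted p = 2.8e-06) at 8 h. Its relative Fpr1 was at 3.15, 2.61, 25.3 and 56.6 CPM in the same order and also climbed through 8 h. Mrc1, the mannose receptor, was at 37.6, 38.0, 25.8 and 4.28 CPM in IFNARko cells, at 28.2, 30.5, 19.9 and 8.65 CPM in the double knockout and at 166, 164, 104 and 26.8 CPM in WT. It was lowest at 8 h in all 3, with an IFNAR-null change of -2.23 ± 0.25 (SE, adjusted p = 9.7e-05). The macrophage and monocyte markers, whose list holds Mrc1, summed to 1730, 1577, 1797 and 2014 CPM in the IFNARko control and at 1, 3 and 8 h, against 5349 to 5949 CPM in WT. Of the 18 measured, 4 rose and 7 fell at 8 h, where 10.9% of all genes rose and 22.6% fell, but 7 rose and 4 fell without IFNARko and 7 rose and 5 fell with median-ratio scaling.

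**Figure D3:**
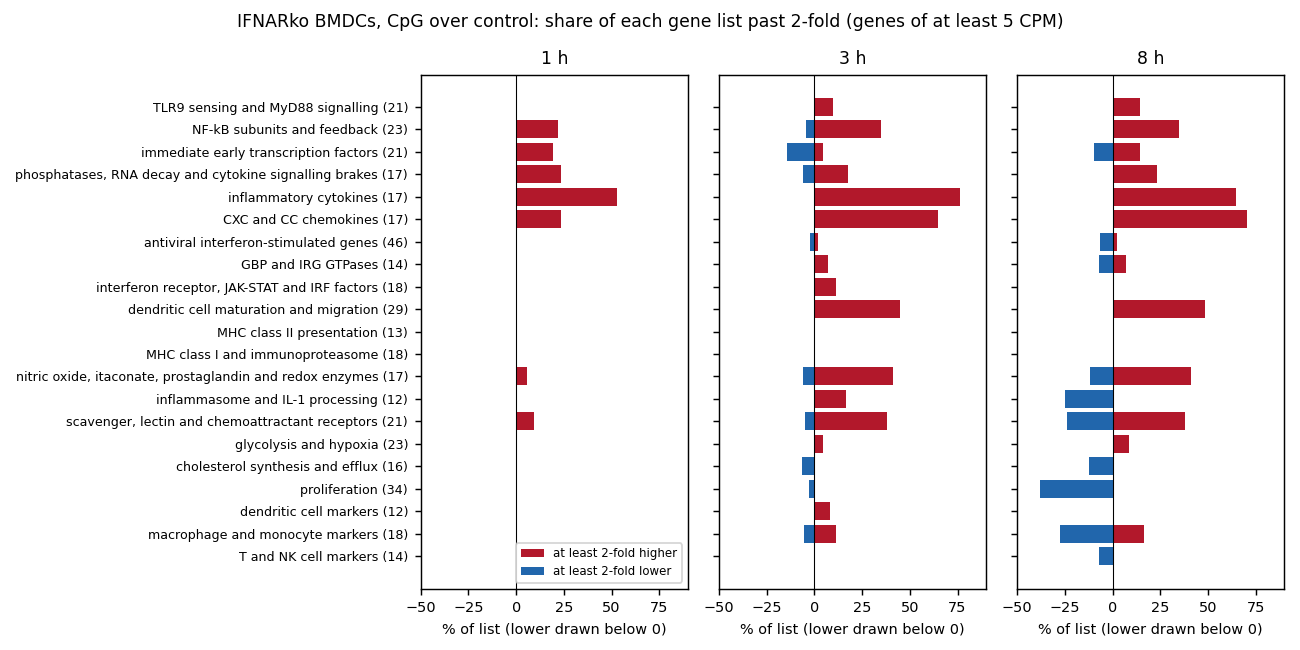
Share of each gene list of 10 or more measured members that was at least 2-fold higher (above 0) or lower (below 0) in IFNARko cells at 1, 3 and 8 h of CpG, with the number of measured members in brackets. Inflammatory cytokines had 9 of 17 members higher at 1 h and chemokines 12 of 17 at 8 h, and the antiviral list had 1 of 46 members higher at 3 h and at 8 h.

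The genes that fell most at 3 h included Klf4 and Klf2, zinc-finger factors that restrain myeloid and endothelial inflammation. Klf4 was at 68.8, 57.4, 10.5 and 7.95 CPM in the IFNARko control and at 1, 3 and 8 h, at 55.5, 52.5, 14.6 and 8.91 CPM in the double knockout and at 62.2, 72.4, 7.31 and 8.24 CPM in WT. All 3 h and 8 h libraries lay under all control and 1 h libraries, and the IFNAR-null change was -2.23 ± 0.16 (SE, adjusted p = 2.0e-08) at 3 h and -2.74 ± 0.16 (SE, adjusted p = 6.5e-10) at 8 h. Klf2 was at 44.7, 28.1, 9.82 and 5.20 CPM in IFNARko cells in the same order and fell at 3 h, with a change of -1.96 ± 0.24 (SE, adjusted p = 2.9e-05). Pou4f1 and Lyl1, transcription factors known from neurons and from blood cell development, were at 18.3, 18.5, 2.77 and 2.75 CPM and 22.1, 21.5, 3.58 and 5.50 CPM in the IFNARko control and at 1, 3 and 8 h. Both were near their control at 1 h and low at 3 and 8 h, with changes at 3 h of -2.46 ± 0.19 (SE, adjusted p = 5.9e-08) for Pou4f1 and -1.82 ± 0.30 (SE, adjusted p = 0.00098) for Lyl1.

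At 8 h the largest falls were in Cyp2s1, a cytochrome P450, and Emp1, an epithelial membrane protein. Cyp2s1 was at 25.9, 23.7, 6.35 and 0.306 CPM in the IFNARko control and at 1, 3 and 8 h, the last being 1 read, and Emp1 was at 39.1, 38.0, 23.5 and 1.22 CPM. The IFNAR-null changes at 8 h were -3.90 ± 0.25 (SE, adjusted p = 2.2e-09) for Cyp2s1 and -4.03 ± 0.17 (SE, adjusted p = 2.8e-11) for Emp1, and Emp1 fell further in IFNAR-null than in IFNAR-intact cells, with a difference of -1.14 ± 0.25 (SE, adjusted p = 0.0087) that was lost without WT. Rab11fip4, an effector of the recycling GTPase Rab11, was at 122, 109, 28.1 and 11.0 CPM in IFNARko cells in the same order and fell, with a change of -2.80 ± 0.21 (SE, adjusted p = 1.0e-06). Il1r2, the IL-1 decoy receptor, was at 28.0, 27.3, 19.2 and 3.67 CPM and changed by -2.59 ± 0.15 (SE, adjusted p = 6.8e-10) at 8 h, a fall beside the rise of Il1a and Il1b.

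Cell cycle genes were lower by 8 h. Of 34 proliferation genes, all of which passed 5 CPM, 13 were at least 2-fold lower in IFNARko cells at 8 h and none was 2-fold higher, and the median change was -0.82. The list summed to 2027, 2032, 1798 and 1165 CPM in the IFNARko control and at 1, 3 and 8 h, against 2106, 2099, 1888 and 1682 CPM in the double knockout and 888, 909, 683 and 414 CPM in WT. In the fit 24 fell and 1 (Tyms) rose at 8 h, but 3 fell without IFNARko, so that these calls rest on the IFNARko libraries. Over all genes tested 10.9% rose and 22.6% fell at 8 h. Cenpa, the histone H3 variant of centromeres, was at 99.7, 86.3, 57.6 and 35.8 CPM in IFNARko cells and at 102, 86.4, 48.0 and 39.8 CPM in the double knockout, in the order of control and 1, 3 and 8 h. It was lower at 8 h than in the control in both, with a change of -1.39 ± 0.11 (SE, adjusted p = 3.4e-08). The part of the depth of the 8 h library, the shallowest of all, in these falls was not tested beyond thinning: with the 4 IFNARko libraries thinned to its depth, 327 genes were higher and 485 lower at 8 h.

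Among the called genes of glycolysis and cholesterol synthesis more fell than rose at 8 h, as among all genes called. Of 23 glycolysis and hypoxia genes, 3 rose and 12 fell at 3 h and 4 rose and 12 fell at 8 h, or 4 and 7 at 3 h and 4 and 9 at 8 h with median-ratio scaling. Without the double knockout 6 fell at 3 h and 7 at 8 h. Over all genes 18.6% fell at 3 h and 22.6% at 8 h. The glucose transporter gene Slc2a1 was at 75.2, 73.4, 126 and 207 CPM in the IFNARko control and at 1, 3 and 8 h and rose by 1.14 ± 0.14 (SE, adjusted p = 1.7e-05) at 8 h, and hexokinase 2 (Hk2) was at 114, 116, 170.1 and 236 CPM and rose by 0.87 ± 0.11 (SE, adjusted p = 9.4e-06). Pdk1, which holds back pyruvate oxidation, was at 59.6, 60.2, 29.9 and 41.0 CPM and fell at 3 h, with a change of -1.09 ± 0.12 (SE, adjusted p = 2.4e-06). Of 16 cholesterol genes, 9 fell and none rose at 8 h, or 5 fell and 1 rose with median-ratio scaling and 5 fell without WT or without RelBko. Dhcr7, an enzyme of the last steps of cholesterol synthesis, was at 41.7, 38.3, 20.4 and 13.5 CPM in IFNARko cells in the same order, with a change of -1.23 ± 0.17 (SE, adjusted p = 4.0e-05) at 8 h.

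The interferon genes themselves were scarcely read. Of 15 type I and III interferon genes listed, 7 were in the sheet and none reached 5 CPM. Ifnb1 had 0, 2, 6 and 6 reads in the IFNARko control and at 1, 3 and 8 h, or 0, 0.274, 0.693 and 1.83 CPM, and Ifna2, Ifna4, Ifna5, Ifnab, Ifnk and Ifnl3 had 0 reads in the 4 libraries. A count of 0 at 8 h allows up to 3 reads of 3269933, which covers counting error only. In WT the list summed to 0, 0.507, 1.20 and 0.568 CPM in the control and at 1, 3 and 8 h.

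Antiviral interferon-stimulated genes separated IFNAR-null from IFNAR-intact cells. Of 55 listed, 46 passed 5 CPM in IFNARko cells, and the 9 that did not include Ifit3 and Irf7. The list summed to 3506, 3610, 4236 and 4048 CPM in the IFNARko control and at 1, 3 and 8 h. In WT it summed to 3270, 3576, 6296 and 15598 CPM in the same order. Among the 46 the change at 8 h ran from -2.49 to 2.28 in IFNARko cells with a median of -0.19, and from 0.37 to 5.86 in WT with a median of 2.15. In the double knockout the median was 0.02 and in RelBko cells 2.01. The IFNAR-null change was smaller than the IFNAR-intact one for 20 genes at 3 h and 42 at 8 h, with median differences of -0.81 and -2.29, beside 0.02 and 0.09 over all genes tested. In all genes 13 responded more without IFNAR and 69 less at 3 h (0.103% and 0.547%), and 451 more and 363 less at 8 h (3.58% and 2.88%), or 266 more and 501 less at 8 h with median-ratio scaling. Both counts moved with single genotypes: the 82 genes of 3 h became 25 without WT, 20 without RelBko, 53 without the double knockout and 150 without IFNARko, and the 814 of 8 h became 182 without WT and 524 without the double knockout. At 1 h 0 genes passed in either direction (0%), with 139 at an unadjusted p under 0.05, and voom also gave 0. Leaving out each genotype in turn gave 7 to 21 antiviral genes at 3 h, with 7 without RelBko, 13 without the double knockout and 14 without WT, and 41 or 42 at 8 h.

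**Figure D4:**
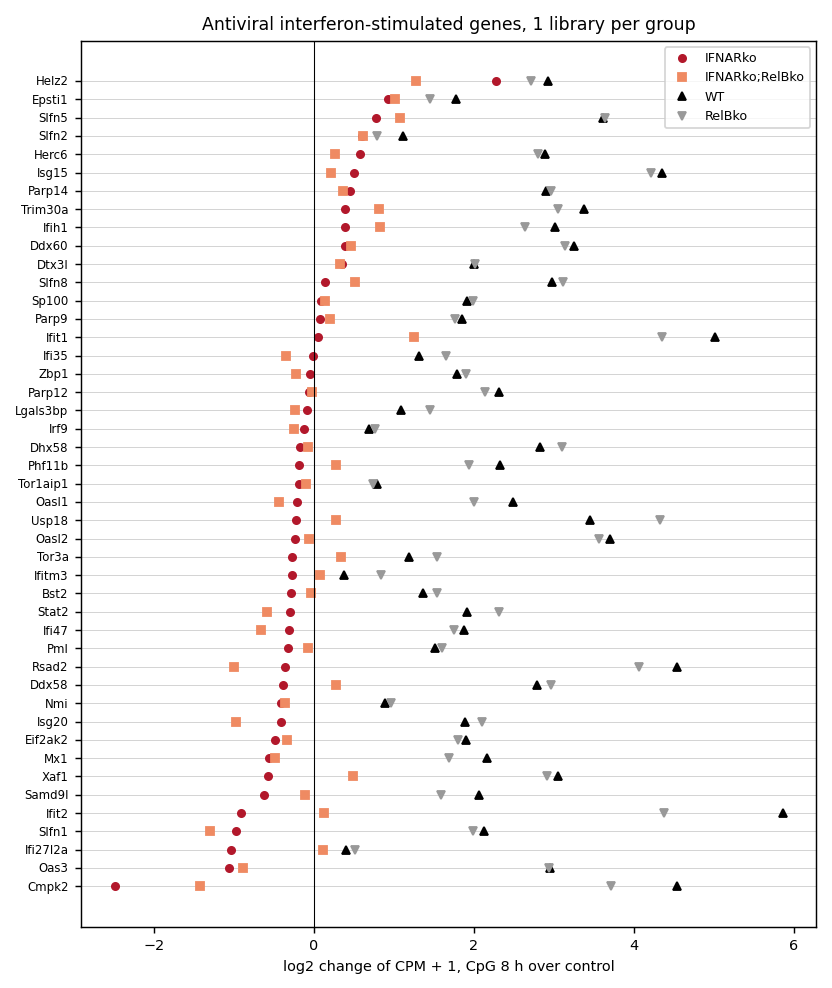
Change of log2(CPM + 1) from control to 8 h of CpG for 45 of the 46 antiviral genes that passed 5 CPM in IFNARko cells, in each of the 4 genotypes, ordered by the IFNARko value. IFNARko values run from -2.49 (Cmpk2) to 2.28 (Helz2) and WT values from 0.37 to 5.86.

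Cmpk2, a nucleotide kinase encoded next to viperin, differed between the groups at 3 h. It was at 16.7, 16.5, 5.89 and 2.14 CPM in the IFNARko control and at 1, 3 and 8 h, at 8.01, 8.49, 1.59 and 2.36 CPM in the double knockout and at 8.17, 10.4, 64.6 and 213 CPM in WT. It fell in the IFNAR-null cells while the WT level climbed, and the difference was -4.45 ± 0.43 (SE, adjusted p = 0.0008) at 3 h and -6.09 ± 0.43 (SE, adjusted p = 5.0e-06) at 8 h. Rsad2, which encodes viperin, was at 14.1, 16.9, 13.1 and 10.7 CPM in the IFNARko control and at 1, 3 and 8 h, against 35.7, 34.7, 211 and 849 CPM in WT, a difference of -4.98 ± 0.33 (SE, adjusted p = 1.7e-06) at 8 h. Isg15, a ubiquitin-like modifier whose ISRE matches are shown above, was at 15.3, 14.8, 29.5 and 22.0 CPM in IFNARko cells and 16.1, 20.8, 76.5 and 347 CPM in WT. It rose in IFNAR-null cells at 3 h by 0.94 ± 0.16 (SE, adjusted p = 0.00022) and its change at 8 h of 0.36 ± 0.16 (SE, adjusted p = 0.088) did not pass, with a difference there of -3.93 ± 0.22 (SE, adjusted p = 4.8e-09).

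Mx1, a dynamin-like antiviral GTPase, began higher in IFNARko cells than in WT and moved the other way. It was at 140.2, 142, 96.5 and 94.8 CPM in the IFNARko control and at 1, 3 and 8 h, at 129, 125, 80.7 and 91.7 CPM in the double knockout and at 80.9, 95.7, 169.9 and 365 CPM in WT, and the difference was -1.75 ± 0.16 (SE, adjusted p = 1.7e-05) at 3 h. Oas3, a sensor of double-stranded RNA, was at 42.7, 41.6, 33.0 and 19.9 CPM in IFNARko cells, against 56.1, 52.6, 61.3 and 441 CPM in WT, a difference of -3.92 ± 0.23 (SE, adjusted p = 2.3e-08) at 8 h. Ifit1, an antiviral RNA-binding protein, was at 8.81, 10.4, 8.43 and 9.17 CPM in IFNARko cells in the same order and at 9.89, 7.23, 97.6 and 351 CPM in WT. Its IFNARko level stayed within 8.43 to 10.4 CPM, and the difference at 8 h was -4.03 ± 0.49 (SE, adjusted p = 0.0011).

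A few genes of the antiviral list rose without IFNAR: 8 at 3 h and 9 at 8 h, beside 8.21% and 10.9% of all genes. In the same fit 5 fell at 3 h and 11 at 8 h, or 4 and 5 with median-ratio scaling, which gave 9 and 11 rising. Without the double knockout 5 rose and 7 fell at 8 h, and without IFNARko 7 rose and 7 fell there. At 3 h the 5 falls became 10 without WT or without RelBko and 8 without IFNARko. The genes that rose included Ifih1, Parp14, Dtx3l, Slfn2, Slfn5, Epsti1 and Helz2 at both times. Helz2, a helicase and nuclear receptor coactivator, was at 119.5, 133, 497 and 583 CPM in the IFNARko control and at 1, 3 and 8 h, at 85.4, 95.5, 464 and 208 CPM in the double knockout and at 131, 124, 703 and 997 CPM in WT. It was the member of the list past 2-fold upward in IFNARko cells at 3 and 8 h, with an IFNAR-null change of 2.24 ± 0.29 (SE, adjusted p = 0.0015) at 3 h. The difference from the IFNAR-intact change was -1.04 ± 0.41 (SE, adjusted p = 0.21) at 8 h and did not pass. Slfn5, a schlafen family gene, was at 49.4, 56.8, 96.2 and 85.6 CPM in IFNARko cells against 52.5, 61.9, 168 and 656 CPM in WT. It rose in IFNAR-null cells by 1.31 ± 0.15 (SE, adjusted p = 2.4e-05) at 3 h, and at 8 h its difference from the IFNAR-intact change was -2.70 ± 0.22 (SE, adjusted p = 1.8e-06). Ifih1, the RNA sensor MDA5, was at 28.6, 29.5, 47.6 and 37.6 CPM in IFNARko cells in the same order, with a change of 0.60 ± 0.16 (SE, adjusted p = 0.01) at 8 h.

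The guanylate-binding proteins and immunity-related GTPases, which respond to interferon-gamma as well as to type I interferon, were high in the IFNARko control. Their list summed to 2747, 2834, 3633 and 3874 CPM in the IFNARko control and at 1, 3 and 8 h, against 887, 910, 791 and 1188 CPM in the double knockout and 1095, 1150, 1768 and 2933 CPM in WT. Gbp2 was at 1374, 1439, 1846 and 2544 CPM in IFNARko cells, at 377, 391, 449 and 843 CPM in the double knockout and at 464, 471, 643 and 1518 CPM in WT, and it rose without IFNAR by 1.02 ± 0.09 (SE, adjusted p = 8.0e-08) at 8 h. The list as a whole did not follow Gbp2: 3 of its 14 measured genes rose and 5 fell in IFNAR-null cells at 8 h. With median-ratio scaling 3 rose and 3 fell. Over all genes 10.9% rose and 22.6% fell there. The list's median change in IFNARko cells at 8 h was -0.26. Irgm2 was at 67.2, 64.9, 72.7 and 45.9 CPM in IFNARko cells and at 32.3, 30.9, 78.4 and 94.9 CPM in WT, a difference of -1.70 ± 0.21 (SE, adjusted p = 0.0008) at 3 h that was lost without RelBko. Of the 14 genes measured, 3 responded less without IFNAR at 3 h and 9 at 8 h, and 8 at 3 h without IFNARko, none at 3 h without RelBko and 4 at 8 h without WT. The T and NK cell markers were high in the same IFNARko libraries, with the granzyme gene Gzma at 341, 378, 307 and 177 CPM, against 10.2, 13.3, 10.2 and 5.50 CPM in the double knockout and 75.0, 92.3, 66.6 and 31.8 CPM in WT. The part of such cells in the level of these GTPases was not tested.

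Among the genes that responded more, or fell less, without IFNAR were several that were lower after CpG in WT. Cnr2, the cannabinoid receptor of immune cells, was at 51.9, 41.6, 19.6 and 35.5 CPM in the IFNARko control and at 1, 3 and 8 h, at 34.7, 33.6, 16.4 and 29.4 CPM in the double knockout and at 34.8, 33.4, 4.90 and 10.6 CPM in WT. It was lowest at 3 h in each, and lower in WT, with a difference of 1.21 ± 0.19 (SE, adjusted p = 0.0031) at 3 h that was lost without WT or without the double knockout. E2f2, a cell cycle transcription factor, was at 61.2, 63.3, 28.7 and 16.8 CPM in IFNARko cells and 53.8, 60.1, 9.20 and 5.26 CPM in WT, a difference of 1.50 ± 0.19 (SE, adjusted p = 4.0e-05) at 8 h. Ltb4r1, the leukotriene B4 receptor, was at 78.2, 68.7, 47.6 and 33.6 CPM in IFNARko cells and 81.6, 80.9, 37.7 and 11.5 CPM in WT, a difference of 1.62 ± 0.16 (SE, adjusted p = 3.2e-06) at 8 h. Ffar2, a receptor for short-chain fatty acids, was at 9.91, 12.9, 10.9 and 7.65 CPM in IFNARko cells and 6.31, 7.10, 2.32 and 0.521 CPM in WT, a difference of 2.16 ± 0.28 (SE, adjusted p = 7.3e-05) at 8 h.

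Genes of the inflammasome, which cleaves the IL-1 precursors, were called in both directions. Of 12 measured, 2 were at least 2-fold higher in IFNARko cells at 3 h and 3 at least 2-fold lower at 8 h, and in the fit 4 rose and 2 fell at 3 h and 3 rose and 4 fell at 8 h. Without IFNARko or without the double knockout 2 rose and 1 fell at 3 h, and over all genes 8.21% rose and 18.6% fell there. Nlrp3, the sensor of the best-known inflammasome, was at 55.3, 66.4, 149 and 98.5 CPM in the IFNARko control and at 1, 3 and 8 h, at 53.0, 58.2, 105 and 74.7 CPM in the double knockout and at 85.3, 89.8, 298 and 153 CPM in WT. Its IFNAR-null change was 1.19 ± 0.14 (SE, adjusted p = 2.2e-05) at 3 h and 0.65 ± 0.14 (SE, adjusted p = 0.0025) at 8 h, the last lost without IFNARko. Casp4, the caspase that binds cytosolic lipopolysaccharide, was at 11.7, 14.3, 26.1 and 19.9 CPM in IFNARko cells and at 37.1, 40.8, 63.3 and 83.4 CPM in WT, a difference in change of -0.72 ± 0.21 (SE, adjusted p = 0.044) at 8 h that was lost without any of WT, RelBko and the double knockout. Il1rn, which encodes the IL-1 receptor antagonist and belongs to the list of brakes, was at 42.5, 48.0, 149 and 311 CPM in the IFNARko control and at 1, 3 and 8 h, and its IFNAR-null change at 8 h of 1.87 ± 0.51 (SE, adjusted p = 0.034) was lost without WT or without RelBko.

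Antigen presentation genes also differed by 8 h, in opposite directions. Of 13 MHC class II genes, none passed 2-fold in IFNARko cells at any time, and 6 had a larger IFNAR-null than IFNAR-intact change at 8 h, or 3 with median-ratio scaling, 1 without WT and 2 without IFNARko. Over all genes tested 3.58% had a larger and 2.88% a smaller IFNAR-null change at 8 h. H2-DMa, a chaperone of peptide loading, was at 294, 304, 246 and 189 CPM in the IFNARko control and at 1, 3 and 8 h and at 251, 266, 167 and 98.6 CPM in WT. It declined in both and less in IFNARko cells, with a difference of 0.73 ± 0.13 (SE, adjusted p = 0.0016) at 8 h that was lost without WT. Of 18 MHC class I and immunoproteasome genes, 5 responded less without IFNAR at 8 h, or 3 without WT or without the double knockout. Psme2, a proteasome activator subunit, was at 317, 304, 358 and 407 CPM in IFNARko cells and at 199.7, 199, 239.7 and 362 CPM in WT, a difference of -0.46 ± 0.11 (SE, adjusted p = 0.013) that was lost without any 1 of WT, IFNARko and the double knockout.

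Genes of the sensing pathway were called in both directions. Among all genes 8.21% rose and 18.6% fell at 3 h, and 10.9% rose and 22.6% fell at 8 h. Of 21 TLR9 and MyD88 pathway genes, 6 rose and 5 fell at 3 h and 5 rose and 4 fell at 8 h. Without IFNARko 2 fell at 3 h and 1 at 8 h, and without the double knockout none fell at 3 h. In each of these fits 3 rose at 8 h. Tlr9 was at 72.7, 62.8, 52.6 and 58.4 CPM in the IFNARko control and at 1, 3 and 8 h and at 61.1, 56.4, 39.5 and 41.5 CPM in WT. It fell at 3 h, with a change of -0.49 ± 0.13 (SE, adjusted p = 0.0096) that was lost without IFNARko or without the double knockout. Irak3, the kinase-dead brake IRAK-M, was at 17.5, 18.0, 26.3 and 54.7 CPM in IFNARko cells in the same order and rose by 1.76 ± 0.14 (SE, adjusted p = 3.0e-08) at 8 h. Tlr2, a receptor for bacterial lipoproteins, was at 25.5, 41.4, 86.6 and 64.8 CPM and rose by 1.88 ± 0.33 (SE, adjusted p = 0.0049) at 3 h. Of the interferon regulatory factors, Irf4, a factor of dendritic cell and lymphocyte identity, was at 243, 448, 609.7 and 447 CPM in IFNARko cells and rose by 1.43 ± 0.14 (SE, adjusted p = 5.6e-06) at 3 h. Irf1 was at 289.9, 473, 469 and 352 CPM in the same order, higher at 1 h, and its IFNAR-null change at 1 h of 0.49 ± 0.16 (SE, adjusted p = 0.45) did not pass.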

How the data were processed

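The series holds 28 RNA libraries of dendritic cells grown from mouse bone marrow, and the 16 of the CpG sheet entered this work. Per the labels' protocols, libraries were made with a stranded mRNA kit and read single-end at 50 bases, and per the submitters' processing notes cutadapt, edgeR and the mm10 build were used, while their versions and any aligner are not given in the sources used here. Values the authors deposited are a signal of CPM + 1 per gene. They gave whole reads within 0.001 read for 100% of values in each library, with 3269933 to 42227938 reads a library. Rows without a gene symbol (0.073 to 0.12% of reads) and 11 symbols that stood on 22 lines were left out. The Poly(I:C) sheet was not used.

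The response in IFNARko cells was the difference of log2(CPM + 1), with intervals on ratios from exact binomial limits that cover counting error only. Tests were two-sided, from limma 3.58.1 with statmod 1.5.0 in R 4.3.3 (trend and robust settings) on log2(CPM + 1) of genes with at least 1 CPM in at least 3 libraries, with a term for genotype and time within IFNAR state. On simulated reads the fit recovered 32% and 31% of differences between IFNAR states of log2 size 1 at 3 and 8 h. For log2 size 2 it recovered 93% and 96%. Among unchanged genes it made 7 and 9 false calls of a difference at 3 and 8 h. For the IFNAR-null response it made 5 at 3 h and 32 at 8 h, where it recovered 87% of the 100 genes changed by log2 size 1 and 100% of the 100 changed by log2 size 2. The simulation had the same dispersion for all genes, no spread of CpG changes between genotypes and no changed gene at 1 h. A difference that did not pass is therefore not shown to be absent. Adding 1 understates the change of low genes. The planned edgeR and DESeq2 tests were not run here. Where a genotype was left out, the single genotype left in its IFNAR state was assumed to vary like the others.

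The genes and lists were chosen with earlier results of these data known. Named genes were, at each time, the 10 largest rises and falls in IFNARko cells with the same sign in the double knockout, up to 5 members of each list by size of change, the 5 lowest adjusted p of each sign for the difference between IFNAR states, and a fixed set of genes. Genes named beyond these, such as Slfn5 and Ifih1, were chosen after their values were seen, and some genes that the rule names are not reported here. Promoters came from the RefSeq table of GRCm38.p6, and the oligonucleotide's sequence is not given here.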

Additional observations from a re-analysis of the deposited data

Results flagged for a closer look

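The difference between the IFNAR-null and the IFNAR-intact response to CpG was tested directly, and it was called for 82 genes at 3 h and 814 genes at 8 h by limma at an adjusted p under 0.05. Values below are IFNAR-null minus IFNAR-intact log2 changes, each with 2 genotypes in each IFNAR state. The genes with the lowest adjusted p that were lowered less, or raised more, without IFNAR at 3 h were Cnr2 (1.21), E2f2 (1.12), 4632428N05Rik (1.05), Ffar2 (1.62) and Cass4 (0.98). At 8 h they were E2f2 (1.50), Ccdc80 (1.41), Ltb4r1 (1.62), Dab2 (0.98) and Chn2 (1.51). Those that responded less without IFNAR at 3 h were Mx1 (-1.75), Oasl2 (-1.53), Irgm2 (-1.70), Dtx3l (-1.07) and Cmpk2 (-4.45). At 8 h they were Mx1 (-2.45), Oasl2 (-3.78), Isg15 (-3.93), Parp12 (-2.27) and Oas3 (-3.92). Oasl2, an antiviral gene of the oligoadenylate synthetase family, was at 26.1, 28.5, 24.6 and 22.0 CPM in the IFNARko control and at 1, 3 and 8 h, against 37.3, 30.3, 84.7 and 497 CPM in WT. Parp12, an antiviral ADP-ribosyltransferase, was at 69.9, 63.0, 55.7 and 66.7 CPM in IFNARko cells in the same order and at 56.1, 52.5, 69.0 and 282 CPM in WT. Dab2, an adaptor of endocytosis, was at 73.2, 88.1, 40.5 and 47.7 CPM in IFNARko cells and at 143, 173, 79.4 and 46.0 CPM in WT.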

How the results depend on the processing

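No called or past-2-fold value of a named gene changed sign under the alternatives that were run, but the balance of higher and lower counts did. With median-ratio scaling the genes that rose and fell were 1513 and 1233 at 3 h in place of 1035 and 2343, IFNARko genes past 2-fold at 8 h were 413 higher and 330 lower in place of 307 and 445, and the difference at 8 h was 266 higher and 501 lower in place of 451 and 363. Counts of IFNARko genes at least 2-fold higher stayed within 1.5 times. Those lower moved further: at 1 h to 24 with reads thinned to the shallowest library and 5 with the limit on the highest library, in place of 3, at 3 h to 114 with a pseudocount of 5, 129 with median-ratio scaling and 112 centred on GC, in place of 203, and at 8 h to 259 with a pseudocount of 5, in place of 445. In total 82 genes passed at 1 h when thinned, in place of 48, and 499 at 8 h with a pseudocount of 5, in place of 752. Without the genotype term the IFNAR-null response had 15, 639 and 966 called genes at 1, 3 and 8 h, in place of 62, 3378 and 4227, with none of the 15 falling, and the difference between IFNAR states had 0 at 3 h and 37 at 8 h, in place of 82 and 814. Leaving out each genotype in turn gave 41 to 58, 1644 to 3095 and 2115 to 3840 genes for the IFNAR-null response at 1, 3 and 8 h, and 0 to 1, 20 to 150 and 182 to 847 for the difference. Without the filter on low values the difference had 43 genes at 3 h and 458 at 8 h. Without the 8 h libraries of both IFNAR-null genotypes it had 151 at 3 h. Chosen after seeing the data, voom weights on the recovered reads gave 95 genes for the response at 1 h, and plain eBayes gave 32 there and 23 and 377 for the difference at 3 and 8 h. The cause of these shifts was not tested.

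Of 254 called IFNAR-null changes of named genes, 113 kept their call under every alternative run and 141 lost it under at least 1, 133 without the genotype term and 74 on leaving out at least 1 genotype. Of 70 called differences between IFNAR states 5 kept their call under every alternative, while 65 lost it without the genotype term and 43 on leaving out at least 1 genotype. Of 176 IFNARko changes past 2-fold, 69 stayed within their counting interval under every alternative and 107 moved beyond it under at least 1. The edgeR and DESeq2 tests planned as alternatives were not run, and voom on the recovered reads was added. No paired analysis was possible because each group holds 1 library and the labels give no shared replicate numbers, so genotype served as the block. Depth limits the 8 h library most, where 5 CPM stands for 16.3 reads.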

Other observations

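Several of the genes with the largest falls in IFNARko cells belonged to none of the lists. Tmem151a, which encodes a membrane protein, was at 27.1, 18.8, 5.20 and 2.14 CPM in the IFNARko control and at 1, 3 and 8 h, at 6.41, 7.15, 0.706 and 0.262 CPM in the double knockout and at 18.6, 16.1, 4.56 and 0.900 CPM in WT, with an IFNAR-null change of -2.15 ± 0.23 (SE, adjusted p = 2.2e-06) at 3 h. Diras2, a small GTPase of the Ras family, was at 10.2, 5.90, 1.27 and 4.28 CPM in IFNARko cells in the same order and changed by -1.61 ± 0.26 (SE, adjusted p = 0.00016) at 3 h. Sept3, a septin, was at 17.2, 16.1, 8.55 and 0.917 CPM in IFNARko cells and changed by -2.22 ± 0.36 (SE, adjusted p = 0.00032) at 8 h. Fcrls, an Fc receptor-like molecule of macrophages and microglia, was at 99.5, 84.1, 65.4 and 12.8 CPM in IFNARko cells, against 65.7, 61.4, 44.1 and 15.7 CPM in WT, with a change of -2.61 ± 0.14 (SE, adjusted p = 3.2e-10) at 8 h. The C-type lectin Clec4b2 was at 12.5, 11.8, 8.20 and 0.917 CPM in IFNARko cells and changed by -2.43 ± 0.26 (SE, adjusted p = 1.6e-06) at 8 h.

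Of the 14 T and NK cell markers that passed 5 CPM, 3 fell at 3 h and 2 at 8 h in IFNAR-null cells and none rose, beside falls of 18.6% and 22.6% of all genes tested, and 1 fell at 3 h without the double knockout. Eomes, a transcription factor of NK and T cells, was at 52.5, 55.6, 25.8 and 19.6 CPM in the IFNARko control and at 1, 3 and 8 h, against 7.71, 7.66, 4.06 and 4.19 CPM in the double knockout. Its level was lower at 3 and 8 h than in the control in both, and the IFNAR-null change at 8 h of -1.06 ± 0.18 (SE, adjusted p = 0.00028) was lost without IFNARko.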
